A study of Homo sapiens with 10 samples.

Results

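The 52 genes described here encode the machinery that copies DNA in S phase, and they were taken by name from a list of replication genes, out of 57353 gene symbols in a count table of LNCaP-C4-2 cells. That list was chosen with earlier results of these data known. All 52 passed the filter on low counts that left 17230 genes for testing, and the lowest count of any of them in a sample was 50. C4-2 is a castration-resistant subline of the LNCaP prostate cancer line. Its CPT1A, the enzyme that loads long-chain fatty acids onto carnitine for mitochondrial oxidation, was lowered or raised by lentivirus.

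The 10 samples belonged to 4 lines. NT (n = 2) carried a scrambled, non-targeting shRNA and KD (n = 3) an shRNA against CPT1A, and the labels give puromycin selection for this pair. EV (n = 2) carried an empty vector and OE (n = 3) the CPT1A cDNA, with blasticidin selection. One shRNA was used, and no source used here describes more than 1 line of each kind, so the p-values below measure the spread between samples within lines. CPT1A stood at 265.5 and 261.7 CPM (counts scaled to library size with TMM factors) in NT, 81.25, 86.44 and 86.18 in KD, 325.7 and 317.7 in EV, and 869.8, 913.8 and 861.1 in OE. Each line thus carried the CPT1A level its label gives. The depth was 23555205 to 28615770 counts per sample, and 3 counts were worth 0.0995 to 0.136 CPM. KD 2 stood apart from KD 1 and KD 3: chi-square over degrees of freedom, across genes, was 6.8 and 7 for its pairs and 2.3 for the pair of the others. OE 2 stood apart to a lesser degree, at 3.88 with OE 1 and 4.47 with OE 3, against 2.17 for OE 1 with OE 3. The NT pair was at 2.5 and the EV pair at 2.04. The 9 prostate markers summed to 6356 and 6636 CPM in NT, 9138 to 9993 in KD, 8726 and 9157 in EV, and 12200 to 12660 in OE. KLK3 was the largest part of this sum, and the markers did not all move alike. In KD versus NT 8 of the 9 were higher and FOLH1 was lower (log2 fold change -0.55). In OE versus EV 7 were higher, and TMPRSS2 (-0.16) and FOLH1 (-0.14) were lower. The 10 markers of immune, endothelial, stromal and basal cells summed to 16.94 and 17.47 CPM in NT, 23.38 to 25.52 in KD, 15.6 and 16.83 in EV, and 20.62 to 23.01 in OE. Among them CD3E, PECAM1, COL1A2 and KRT5 were at 0 in all 10 samples, and 3 were tested: KRT14 (log2 fold change 1.97) and COL1A1 (0.63) rose in KD, and all 3 rose in OE, by 0.83, 0.35 and, for VWF, 0.51. The part of either list in the results below was not tested.

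A cell prepares for replication in G1, when ORC, CDC6 and CDT1 load the MCM2-7 helicase onto origins. At the start of S phase CDC45 and the GINS complex join the helicase, and polymerases alpha, delta and epsilon then copy the strands behind it. Their genes belong to the programme switched on by E2F transcription factors when cells pass from G1 into S phase, so the RNA of an asynchronous culture carries the share of cycling cells as well as the level per cell. In bulk RNA, more cells in S phase and more RNA per cell cannot be told apart.

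The promoters of these genes were read first, since E2F sites are the feature the family is known for. RefSeq windows on GRCh38.p14, from 250 bases before to 50 bases after the gene start, were given for 44 of the 52 genes. The windows were searched on both strands for 4 words of the E2F type (TTCCCGC and TTCGCGC and TTGCCGC and TTGGCGC) and for the word CCAAT. An E2F word was present in 32 of the 44 windows (72.7%), against 13.1% of 27305 promoters and 20.4% of the 10894 promoters of tested genes. CCAAT was present in 26 (59.1%), against 35.7% of all promoters and 36.6% of those of tested genes. Among the gene lists described below, CCAAT was in 54.5% of 33 other replication, 84.2% of 19 mitosis and 27.3% of 11 G1/S switch promoters. The share with CCAAT is thus not particular to these genes. An E2F word was in 30.3%, 21.1% and 36.4% of the same lists. A match of letters is a description of the window and does not show binding.

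The 250 bases before the start are shown for 5 genes, 5' to 3' on the coding strand, with E2F words in capitals. UHRF1 (chr19:4909251-4909500, plus strand) had the highest change in KD cells, CDT1 (chr16:88803539-88803788, plus strand) the highest change in OE cells, and HELLS (chr10:94545538-94545787, plus strand) was lower in OE cells. MCM6 (chr2:135876444-135876693, minus strand) held the most words, 4, as 2 runs in which TTGGCGC overlaps the reverse of TTCGCGC. TK1 (chr17:78187205-78187454, minus strand) held none and is shown as the contrast. The windows of UHRF1 and HELLS lie inside the spans that GENCODE gives these genes, which begin at 4903080 and 94545329, and that of TK1 overlaps the first bases of its gene, which starts at 78187233 on the minus strand.
UHRF1: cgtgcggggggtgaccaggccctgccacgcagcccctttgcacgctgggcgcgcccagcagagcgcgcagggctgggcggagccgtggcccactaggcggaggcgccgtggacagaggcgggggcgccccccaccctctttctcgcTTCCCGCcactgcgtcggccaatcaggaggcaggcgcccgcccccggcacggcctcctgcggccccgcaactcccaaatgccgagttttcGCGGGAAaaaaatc
CDT1: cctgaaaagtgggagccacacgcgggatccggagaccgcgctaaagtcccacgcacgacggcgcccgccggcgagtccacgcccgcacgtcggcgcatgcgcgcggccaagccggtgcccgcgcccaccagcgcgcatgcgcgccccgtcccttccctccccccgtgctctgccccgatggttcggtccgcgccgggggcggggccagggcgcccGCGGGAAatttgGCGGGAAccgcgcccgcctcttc
HELLS: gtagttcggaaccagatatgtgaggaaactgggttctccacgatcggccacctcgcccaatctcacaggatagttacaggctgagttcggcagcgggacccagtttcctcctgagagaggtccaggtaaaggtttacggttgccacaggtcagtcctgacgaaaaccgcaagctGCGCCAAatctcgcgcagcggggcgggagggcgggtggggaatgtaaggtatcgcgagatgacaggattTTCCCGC
MCM6: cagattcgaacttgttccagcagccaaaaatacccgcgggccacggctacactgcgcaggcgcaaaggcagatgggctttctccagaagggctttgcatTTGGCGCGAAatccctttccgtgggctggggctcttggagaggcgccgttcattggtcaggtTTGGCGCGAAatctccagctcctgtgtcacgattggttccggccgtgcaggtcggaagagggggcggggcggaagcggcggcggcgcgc
TK1: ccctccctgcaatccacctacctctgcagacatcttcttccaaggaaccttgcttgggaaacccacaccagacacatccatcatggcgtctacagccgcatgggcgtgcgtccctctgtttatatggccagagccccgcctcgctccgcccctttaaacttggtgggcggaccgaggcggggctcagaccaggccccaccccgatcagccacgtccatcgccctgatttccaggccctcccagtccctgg

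The windows differ in where the words sit. In CDT1 both lie close to the start, in UHRF1 and HELLS the second of them does, and in MCM6 they lie further upstream. The 32 genes with a word had a median log2 fold change of 1.13 in KD versus NT (0.43 to 1.95) and of -0.17 in OE versus EV (-0.96 to 0.71). The 12 genes without a word had medians of 1.37 (0.50 to 1.87) and -0.10 (-0.64 to 0.67), so that both groups covered nearly the same range.

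KD cells carried more RNA of every one of the 52 genes than NT cells. The genes together took 0.1882% and 0.2001% of the counts in NT, 0.4532%, 0.3974% and 0.4236% in KD, 0.2209% and 0.2214% in EV, and 0.2062%, 0.2017% and 0.2041% in OE. The mean share was 0.4247% ± 0.0279 in KD (SD, n = 3) and 0.1942% ± 0.00841 in NT (SD, n = 2). The 3 KD samples were above the other 7 samples, and OE lay between NT and EV. With edgeR's quasi-likelihood test and Benjamini-Hochberg adjustment over the 17230 genes, 50 of the 52 were called higher in KD versus NT at an adjusted p under 0.0001, the limit of the study, where 16.4% of all tested genes were called higher. At 0.05 all 52 were higher, against 29.1% of tested genes. The verbs rose and fell are used below for an adjusted p under 0.05, and called for one under 0.0001. The median log2 fold change was 1.14, a 2.21-fold level, beside a median of -0.02 over all tested genes. The range ran from 0.40 in RPA2 to 1.95 in UHRF1. For all 52 genes the 3 KD samples lay above both NT samples without overlap, which was so for 34.9% of tested genes. For 49 of them the KD samples lay above all 7 others, against 13.8% of tested genes. Mitochondrial transcripts moved with the KD label too, at 13.07% and 13.18% of counts in NT and 10.35%, 11.46% and 10.6% in KD, and the part of this shift in the result was not tested.

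OE cells differed from EV in both directions, with more genes lower than higher. Of the 52 genes, 16 genes were higher and 36 lower, with a median log2 fold change of -0.17 beside -0.02 over all tested genes. Only 4 genes were called higher (background 11.6%) and 8 lower (background 10.3%). The 12 calls are 23.1% of the 52 genes, and 21.9% of all tested genes were called in either direction. At 0.0001 the total of calls was thus near the background. At 0.05, 61.5% of the 52 passed, and the falls were above the background while the rises were below it. Here 9 rose (background 25.6%) and 23 fell (background 26.4%). In neither direction passed 20 of the 52, and 8274 of the 17230 tested genes. OE and EV samples did not overlap for 10 genes that were higher (33.3% of tested genes) and for 31 that were lower (35.6%). The 4 called higher were CDT1 (0.71), TK1 (0.67), PRIM2 (0.56) and POLD2 (0.42). The 8 called lower were POLE2 (-0.96), CLSPN (-0.92), ORC6 (-0.64), ATAD2 (-0.58), POLA1 (-0.40), MCM6 (-0.35), MCM3 (-0.35) and MCM4 (-0.33). The number called lower depended on single samples: it was 1 without EV 1 or EV 2, where the remaining EV sample is assumed to vary like the other lines, 2 without OE 2, 4 without OE 1 or OE 3, and 13 without KD 2. Scaling by library size alone moved the median of all tested genes to -0.117, and then 6 of the 52 rose and 31 fell, where 19.5% of all tested genes rose and 33.9% fell. With that scaling GINS4, POLD1 and TIMELESS no longer passed 0.05 and GMNN, GINS2, POLA2, FEN1, RRM1, UNG, TIPIN and E2F8 passed it downward.

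**Figure D1:**
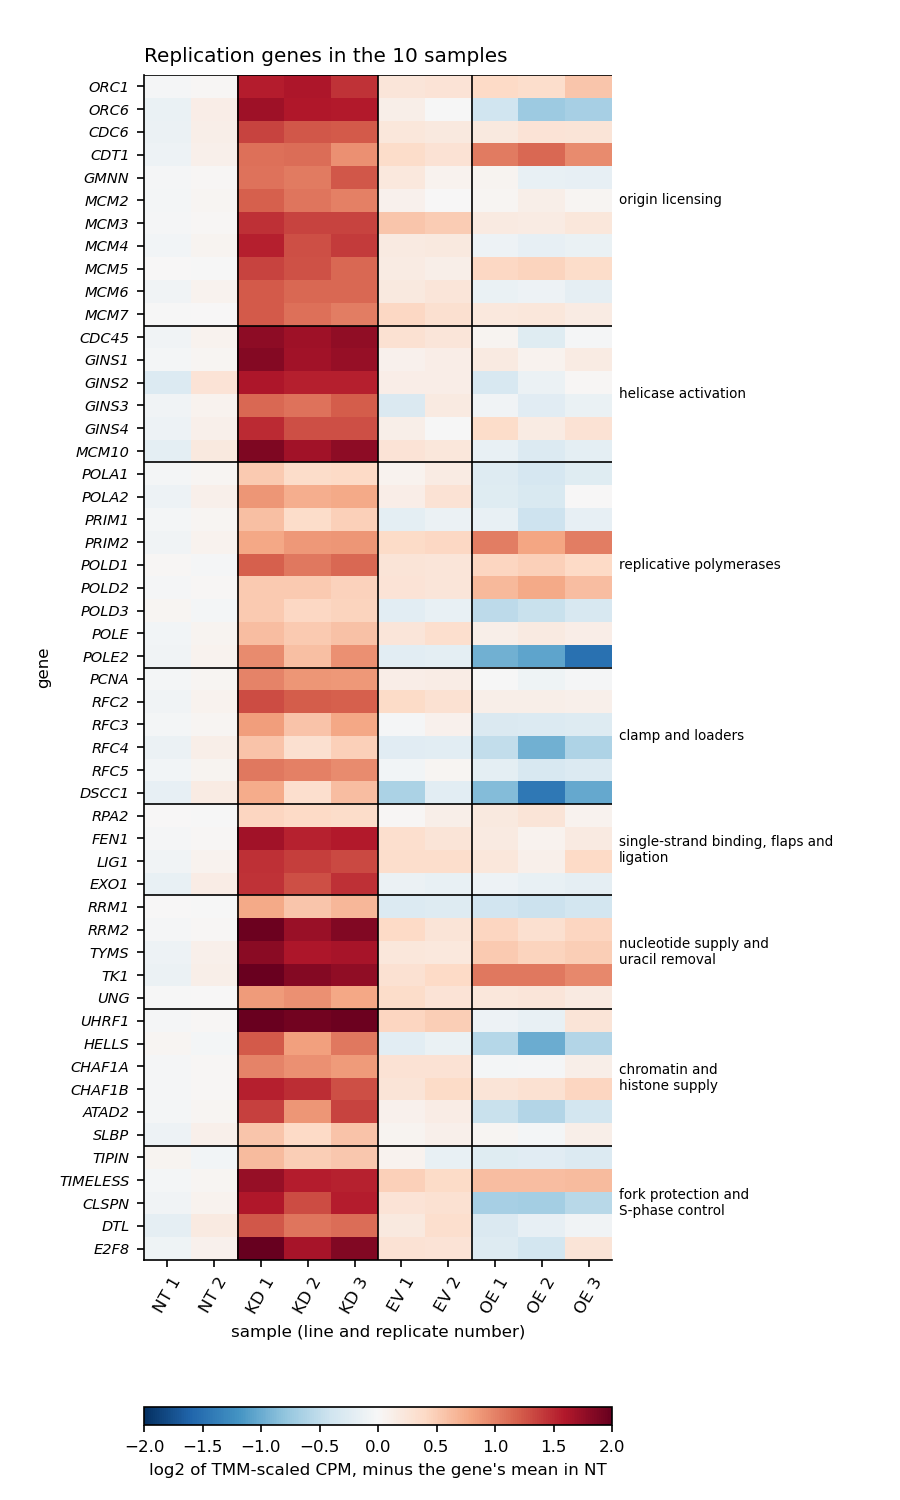
The 52 replication genes (rows, by role) in the 10 samples (columns, by line). Colour gives log2 of the TMM-scaled CPM minus the gene's mean in NT, from -2 (blue) to 2 (red), and the 3 KD columns are red in all rows while the OE columns hold both colours.

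Origin licensing genes rose together in KD cells. All 11 genes of this step were called higher, with log2 fold changes from 1.04 to 1.63 and a median of 1.26. MCM3, a subunit of the helicase ring, stood at 63.88 and 66.12 CPM in NT, 178.2, 166.3 and 166.4 in KD, 95.78 and 92.29 in EV, and 73.42, 72.5 and 75.64 in OE. KD was above the other lines, EV next, and OE lay between EV and NT. MCM3 rose by 1.39 ± 0.05 (log2, SE) in KD (edgeR adjusted p = 1.46e-16) and fell in OE, at -0.35 ± 0.05 (edgeR adjusted p = 3.83e-06). The other 5 ring subunits rose in KD by 1.09 (MCM2) to 1.41 (MCM4). In OE the ring did not move as one, since MCM3, MCM4 and MCM6 were called lower, MCM7 fell at -0.16, MCM5 rose at 0.27, and MCM2 was at 0.02, or -0.08 with library size alone. With the GC offset MCM5 did not pass (0.10) and MCM2 fell, at -0.16. Per kilobase of the canonical transcript, the NT level was highest for MCM7 (50.3 CPM per kb) and lowest for MCM6 (8.36). The order depends on the length used, and on the union of exons the lowest was MCM5 (6.64). MCM2 shares 23.6% of its exons with a gene on the opposite strand.

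CDT1, the loader that is destroyed once S phase begins, had the highest value of the licensing genes in OE. Its levels were 29.13 and 33.84 CPM in NT, 67.04, 68.13 and 59.47 in KD, 40.48 and 38.5 in EV, and 64.17, 69.56 and 60.24 in OE. KD and OE samples overlapped, and both lay above NT and EV. The log2 fold change was 1.04 ± 0.08 in KD versus NT (edgeR adjusted p = 2.43e-11) and 0.71 ± 0.07 in OE versus EV (edgeR adjusted p = 3.09e-08). Geminin (GMNN), the inhibitor of CDT1, rose in KD by 1.13 and was at -0.23 in OE (edgeR adjusted p = 0.0561). The other genes of the step, ORC1, ORC6 and CDC6, rose in KD by 1.54, 1.63 and 1.27. In OE only ORC6 of these passed the test (-0.64).

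Helicase activation had the second highest median of the 8 roles in KD versus NT, 1.65, with all 6 genes called higher. GINS1, a subunit of the 4-membered GINS ring, stood at 18.9 and 19.94 CPM in NT, 69.64, 62.49 and 64.91 in KD, 20.51 and 21.38 in EV, and 22.06, 20.46 and 21.75 in OE. KD lay far above the rest, by 1.76 ± 0.07 on the log2 scale against NT (edgeR adjusted p = 3.4e-16). The value in OE versus EV was 0.03, and its sign turned with scaling by library size alone (-0.06). MCM10, which helps the helicase to start moving, stood at 10.83 and 14.14 CPM in NT, 45.24, 39.45 and 42.66 in KD, 14.98 and 14.52 in EV, and 11.13, 10.27 and 10.83 in OE. It rose in KD by 1.77 ± 0.09 (edgeR adjusted p = 6.34e-14) and fell in OE, at -0.46 ± 0.10 (edgeR adjusted p = 0.000579). CDC45 rose in KD by 1.75 and fell in OE, at -0.34. GINS2, GINS3 and GINS4 rose in KD by 1.55, 1.15 and 1.36, and of these GINS4 passed the test in OE, at 0.22 (edgeR adjusted p = 0.0425). With library size alone GINS4 did not pass (0.13, edgeR adjusted p = 0.284) and GINS2 did (-0.35, edgeR adjusted p = 0.0368). GINS4 shares 23.4% of its exons with genes on the opposite strand.

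The replicative polymerases had the smallest response in KD cells. All 9 genes were called higher, but the median was 0.58 and 8 of the 9 were below 1.00 on the log2 scale. The exception was POLD1, the catalytic subunit of polymerase delta, at 29.35 and 28.71 CPM in NT, 66.5, 60.6 and 64.45 in KD, 34.59 and 34.4 in EV, and 39.24, 40.42 and 38.42 in OE. POLD1 rose in KD by 1.14 ± 0.06 (edgeR adjusted p = 1.03e-13) and in OE by 0.19 ± 0.06 (edgeR adjusted p = 0.0123). The OE value was not past 0.05 without EV 2 (0.19, edgeR adjusted p = 0.0753) or with library size alone (0.09), and was -0.07 once GC content was entered as an offset. The subunit POLD2 stood at 210.6 and 219.4 CPM in NT, 308.7, 309.2 and 295.5 in KD, 260.6 and 254.3 in EV, and 338.6, 362.2 and 329.8 in OE, so that OE was the highest line. Its log2 fold changes of 0.50 ± 0.05 in KD (edgeR adjusted p = 4.1e-09) and 0.42 ± 0.05 in OE (edgeR adjusted p = 1.52e-07) differed by -0.09 ± 0.07, which did not pass the test (edgeR adjusted p = 0.324). With library size alone the difference was -0.22 and passed (edgeR adjusted p = 0.00456), and with the GC offset the OE value was 0.21.

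PRIM2, the large subunit of primase, which begins each new strand with RNA, was also highest in OE. It stood at 10.41 and 11.56 CPM in NT, 18.81, 19.96 and 20.17 in KD, 14.23 and 14.68 in EV, and 22.29, 19.05 and 22.29 in OE. The log2 fold change was 0.84 ± 0.09 in KD (edgeR adjusted p = 2.7e-08) and 0.56 ± 0.09 in OE (edgeR adjusted p = 1.1e-05). PRIM2 lies at chr6:57314805-57646850 (GENCODE v44, GRCh38), and the 20 nearest tested genes had medians of -0.02 in KD and -0.31 in OE. Its partner PRIM1 rose in KD by 0.48 and was at -0.08 in OE.

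Other polymerase subunits fell in OE. POLE2, a small subunit of polymerase epsilon, stood at 5.207 and 5.719 CPM in NT, 10.53, 8.285 and 10.25 in KD, 4.719 and 4.787 in EV, and 2.792, 2.625 and 1.935 in OE. The OE samples were the lowest of the 10. It rose in KD by 0.83 ± 0.13 (edgeR adjusted p = 9.41e-06) and fell in OE, at -0.96 ± 0.17 (edgeR adjusted p = 4.15e-05). POLA1, the catalytic subunit of polymerase alpha, stood at 31.96 and 34.04 CPM in NT, 47.46, 42.73 and 43.62 in KD, 34.59 and 37.08 in EV, and 27.6, 26.07 and 27.94 in OE. Its values were 0.43 ± 0.07 in KD (edgeR adjusted p = 4.81e-06) and -0.40 ± 0.07 in OE (edgeR adjusted p = 3.3e-05), or -0.23 with the GC offset. POLE and POLD3 rose in KD by 0.58 and 0.46 and fell in OE, at -0.14 and -0.24. POLA2 rose in KD by 0.79 and was at -0.37 in OE (edgeR adjusted p = 0.0606), and it overlaps another gene on the same strand over 2012 bp of exon.

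**Figure D2:**
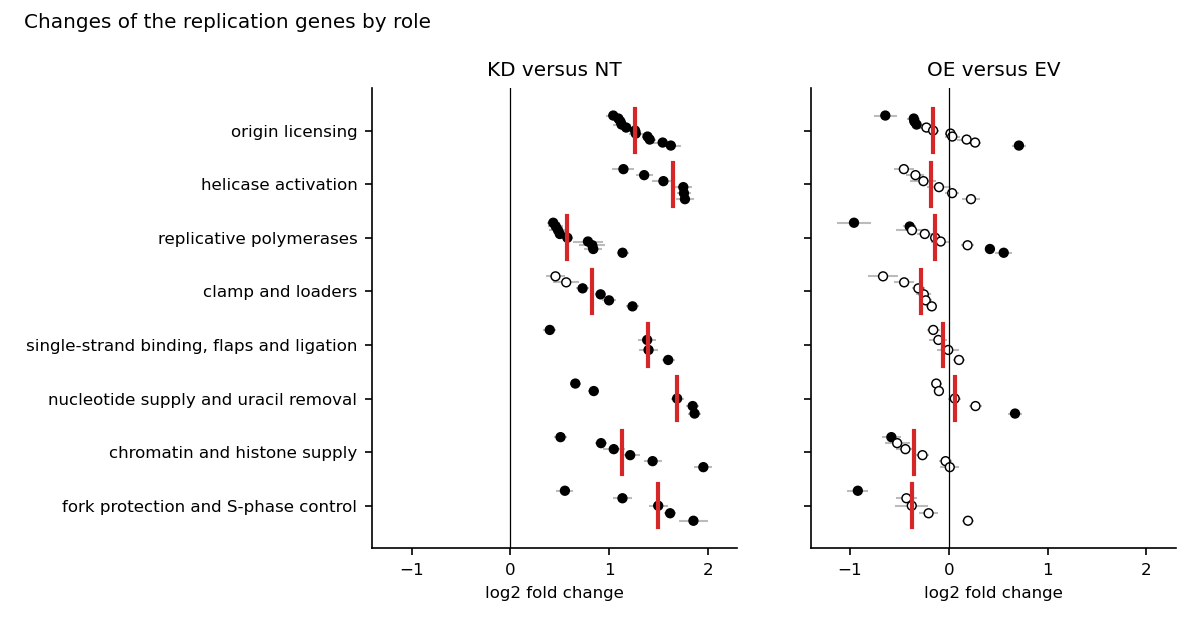
Log2 fold change of each replication gene (points, with SE as grey lines) in KD versus NT and in OE versus EV, by role. Filled points passed an adjusted p under 0.0001 (edgeR), red bars are medians of a role, all points lie right of 0 in KD versus NT, and in OE versus EV the clamp and loader genes all lie left of 0.

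The 6 genes listed for the sliding clamp PCNA and its loaders fell together in OE. Once GC content was an offset, RFC3 turned to 0.05 and PCNA and RFC5 no longer passed. Without the offset all 6 genes of this role fell (median -0.28, -0.67 to -0.17, with 0 called at 0.0001 by edgeR), and all 6 rose in KD (median 0.82, 0.46 to 1.24, with 4 called). Loader genes outside the 52, looked up after their values were seen, went both ways in OE. RFC1 (-0.38) and the related ATAD5 (-1.07) fell, CHTF18 rose (0.49) and CHTF8 was at 0.12 (edgeR adjusted p = 0.714). RFC2, a subunit of the main loader, stood at 24.22 and 26.85 CPM in NT, 63.21, 58.86 and 58.51 in KD, 33.23 and 31.6 in EV, and 27.8, 27.61 and 27.32 in OE. OE lay below EV and just above NT. RFC2 rose in KD by 1.24 ± 0.07 (edgeR adjusted p = 7.87e-14), and its value in OE was -0.23 ± 0.07 (edgeR adjusted p = 0.00504), or -0.18 without EV 1 (edgeR adjusted p = 0.101).

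RFC3, of the same loader, stood at 60.56 and 63.9 CPM in NT, 111, 92.51 and 106.4 in KD, 61.23 and 66.04 in EV, and 50.97, 51.28 and 51.89 in OE. OE was the lowest line, at -0.31 ± 0.07 against EV (edgeR adjusted p = 0.000383), while the offset for GC content gave 0.05 (edgeR adjusted p = 0.443). RFC4 and DSCC1, the latter of the alternative loader that acts in cohesion, were the 2 genes not called in KD. RFC4 stood at 29.13 and 34.15 CPM in NT, 46.7, 39.57 and 43.95 in KD, 27.03 and 27.26 in EV, and 22.49, 16.16 and 20.62 in OE. DSCC1 stood at 12.15 and 15.25 CPM in NT, 22.72, 17.2 and 20.8 in KD, 8.775 and 11.76 in EV, and 7.498, 5.069 and 6.694 in OE. In both, KD was highest and OE lowest, with KD values of 0.46 ± 0.09 (edgeR adjusted p = 0.000186) and 0.57 ± 0.13 (edgeR adjusted p = 0.000661). In OE, RFC4 was at -0.45 ± 0.10 (edgeR adjusted p = 0.00061). DSCC1 was at -0.67 ± 0.16 in OE (edgeR adjusted p = 0.000938), or -0.44 without EV 2 (edgeR adjusted p = 0.0682). PCNA and RFC5 rose in KD by 0.91 and 1.00 and fell in OE, at -0.17 and -0.25.

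Among the genes that finish the lagging strand, FEN1, the nuclease that trims its flaps, rose most in KD. It stood at 24.67 and 25.3 CPM in NT, 79.72, 72.23 and 75.1 in KD, 31.71 and 29.98 in EV, and 28.36, 26.2 and 28.32 in OE. The change in KD was 1.60 ± 0.07 (edgeR adjusted p = 6.43e-16). The value in OE was -0.16 ± 0.07 (edgeR adjusted p = 0.0521), and it passed 0.05 under other settings, among them without KD 2 (-0.16, edgeR adjusted p = 0.0354) and with library size alone (-0.26, edgeR adjusted p = 0.00451). DNA ligase LIG1 and the exonuclease EXO1 rose in KD by 1.39 and 1.40, and in OE they were at -0.11 and -0.01. RPA2, of the complex that coats single-stranded DNA, moved least of the 52 in KD. Its levels were 35.2 and 34.47 CPM in NT, 47.12, 45.68 and 45.14 in KD, 35.37 and 37.85 in EV, and 39.76, 41.59 and 36.68 in OE. KD was still above all other samples, by 0.40 ± 0.06 against NT (edgeR adjusted p = 9.06e-06), and OE overlapped EV (0.10 ± 0.06, edgeR adjusted p = 0.191). In OE versus EV none of the 4 genes of this role passed 0.05 with TMM scaling over all 10 samples, while the GC offset passed RPA2 upward (0.15) and FEN1 (-0.25) and LIG1 (-0.31) downward. RPA2 has 3 annotated pseudogenes with its name, as have PCNA and RRM2, and how reads that fit several places were counted is not given in the sources used here.

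Nucleotide supply and uracil removal had the highest median of the 8 roles in KD versus NT, 1.69 (0.66 to 1.87), and all 5 genes were called. RRM2, the regulated subunit of ribonucleotide reductase, stood at 37.8 and 38.88 CPM in NT, 149.1, 126.4 and 138.3 in KD, 50.39 and 46.04 in EV, and 51.49, 47.66 and 51.54 in OE. KD was far above the other lines and NT was below EV (0.33, edgeR adjusted p = 0.00135). The change in KD was 1.85 ± 0.07 (edgeR adjusted p = 1e-16), and OE overlapped EV (0.06 ± 0.07, edgeR adjusted p = 0.483). The OE value turned to -0.002 without EV 2 and to -0.04 with library size alone. RRM1, the large subunit, rose in KD by 0.66 and was at -0.13 in OE (edgeR adjusted p = 0.0528).

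TK1, the thymidine kinase of S phase, stood at 37.8 and 44.48 CPM in NT, 162.1, 146.9 and 140.7 in KD, 50.78 and 53.99 in EV, and 85.63, 84.86 and 79.63 in OE. The 4 lines did not overlap, in the order KD, OE, EV and NT. The changes were 1.87 ± 0.07 in KD (edgeR adjusted p = 1.46e-16) and 0.67 ± 0.07 in OE (edgeR adjusted p = 2.18e-08), and the difference between them was -1.20 ± 0.10 (edgeR adjusted p = 4.62e-10). Thymidylate synthase (TYMS) rose in both, by 1.69 and 0.27. TYMS shares 1160 bp, 47.9% of its exons, with genes on the opposite strand, and without a stated strand setting these reads cannot be told apart. The uracil glycosylase UNG rose in KD by 0.85 and was at -0.10 in OE (edgeR adjusted p = 0.125).

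The genes that restore chromatin behind the fork were led by UHRF1, which brings the DNA methyltransferase to newly copied DNA and rose most of the 52 in KD. UHRF1 stood at 10.87 and 11.2 CPM in NT, 43.21, 42.09 and 42.99 in KD, 14.82 and 15.54 in EV, and 10.33, 9.957 and 13.16 in OE. KD was far above the rest, and OE overlapped NT but lay below EV. The values were 1.95 ± 0.09 in KD (edgeR adjusted p = 7.9e-15) and -0.44 ± 0.10 in OE (edgeR adjusted p = 0.000554). ATAD2, a bromodomain protein of replicated chromatin, stood at 92.66 and 97.42 CPM in NT, 243.8, 174.5 and 242.6 in KD, 101.2 and 105.7 in EV, and 69.88, 63.32 and 73.9 in OE. KD 2 was well below KD 1 and KD 3, and OE was the lowest line. The values were 1.21 ± 0.09 in KD (edgeR adjusted p = 8.76e-11) and -0.58 ± 0.10 in OE (edgeR adjusted p = 1.74e-05), or -0.26 with the GC offset.

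The chaperones CHAF1A and CHAF1B, which place histones on new DNA, both rose in KD (0.92 and 1.44). In OE they parted, with CHAF1A at -0.27 (edgeR adjusted p = 0.000891) and CHAF1B at 0.01 (edgeR adjusted p = 0.943). HELLS, a remodeller, rose in KD by 1.05 and fell in OE, at -0.52. SLBP, which binds histone mRNA, rose in KD by 0.51 and was at -0.03 in OE.

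Fork protection and S-phase control held the gene with the largest opposite movement. CLSPN, the mediator between the fork and the checkpoint kinase, stood at 10.6 and 11.6 CPM in NT, 33.48, 27.34 and 33.07 in KD, 13.42 and 13.71 in EV, and 6.98, 6.925 and 7.545 in OE. KD was the highest line and OE was below all other samples. CLSPN rose in KD by 1.50 ± 0.09 (edgeR adjusted p = 1.8e-12) and fell in OE, at -0.92 ± 0.11 (edgeR adjusted p = 1.44e-07). TIMELESS, which couples helicase and polymerase, stood at 44.52 and 47.34 CPM in NT, 153.4 and 135.7 in KD 1 and KD 2, with KD 3 close to KD 2 (mean 141.0 ± 10.7, SD, n = 3), 63.57 and 59.79 in EV, and 70.07, 70.33 and 71.31 in OE. All KD samples lay above OE, and OE above EV. Its changes were 1.62 ± 0.06 in KD (edgeR adjusted p = 1.84e-16) and 0.19 ± 0.06 in OE (edgeR adjusted p = 0.00943). The OE value did not pass without EV 2 (0.15, edgeR adjusted p = 0.132) or with the GC offset or library size alone (0.10 for each).

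TIPIN, the partner of TIMELESS, rose in KD by 0.55 and was at -0.20 in OE (edgeR adjusted p = 0.0679). E2F8, the repressor that closes the E2F programme, stood at 4.263 and 4.845 CPM in NT, 18.69, 14.32 and 16.35 in KD, 5.577 and 5.517 in EV, and 3.789, 3.53 and 5.417 in OE. OE 3 was close to the EV samples and the other two were lower. E2F8 rose in KD by 1.85 ± 0.14 (edgeR adjusted p = 7.8e-11) and was at -0.38 ± 0.17 in OE (edgeR adjusted p = 0.0598), and it passed 0.05 under several other settings, among them -0.47 with library size alone (edgeR adjusted p = 0.0316), -0.36 without the filter (edgeR adjusted p = 0.0389), -0.37 with the arm fitted alone (edgeR adjusted p = 0.0379), -0.37 without KD 2 (edgeR adjusted p = 0.0314) and -0.60 without OE 3 (edgeR adjusted p = 0.00442). DTL, which marks CDT1 for destruction, rose in KD by 1.14 and fell in OE, at -0.43.

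**Figure D3:**
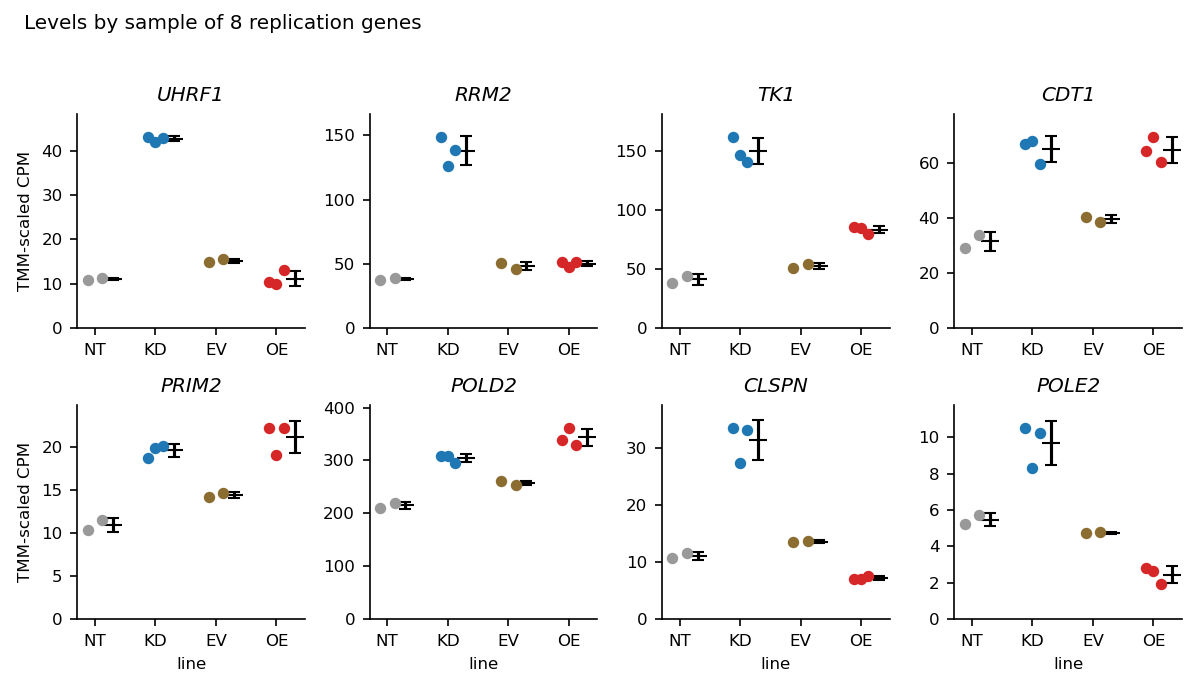
TMM-scaled CPM of 8 replication genes in each sample (points), with the mean and SD of each line as a black bar beside them (NT and EV n = 2, KD and OE n = 3). KD is highest for UHRF1, RRM2, TK1, CLSPN and POLE2, OE lies between EV and KD for TK1 and is highest for PRIM2 and POLD2, and OE is lowest for CLSPN and POLE2.

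The study set the change of OE from EV against that of KD from NT, and this difference was tested as an interaction. All 52 genes had a negative difference, with a median of -1.26 on the log2 scale beside -0.02 over all tested genes. It was called for 46 (background 8.98%) and passed 0.05 for 50 (background 24%). The range ran from -2.42 ± 0.14 in CLSPN (edgeR adjusted p = 1.99e-12) to -0.09 in POLD2. The 6 genes not called were CDT1 (-0.33, edgeR adjusted p = 0.0124), RPA2 (-0.30, edgeR adjusted p = 0.00992), PRIM1 (-0.57, edgeR adjusted p = 0.00103), POLA2 (-1.16, edgeR adjusted p = 0.00016), PRIM2 (-0.28, edgeR adjusted p = 0.0727) and POLD2. By role, the median ran from -0.72 in the polymerases to -1.77 in helicase activation. A negative difference was not particular to the 52 genes. Of the lists below, it was found in all 24 mitosis genes (median -0.96), 33 of 41 other replication genes (-0.49) and 12 of 14 G1/S switch genes (-0.88). Of all 17230 tested genes, 8820 had a negative difference. Without the controls, OE against KD gave 48 of the 52 called lower (background 16.4%) and 0 called higher by edgeR (background 15.5%). At 0.05 POLD2 alone was higher (0.17, background 29.2%) and 49 were lower (background 30.6%). Of the 24 mitosis genes, 23 were called lower in OE against KD.

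KD had the highest mean for 50 genes and OE for the other 2, PRIM2 and POLD2. The lowest mean was in NT for 26 genes and in OE for 26. The controls were not equal, since EV had more RNA than NT for 41 genes, with a median log2 fold change of 0.21 beside 0.00 over all tested genes. Of these, MCM3 (0.53), TIMELESS (0.43) and MCM7 (0.36) were called higher (background 5.25%) and 0 genes were called lower by edgeR (background 2.91%). At 0.05, 22 rose (background 18.5%) and 2 fell (background 15.5%), RRM1 (-0.26) and DSCC1 (-0.42). The number called higher was 1 without NT 1, NT 2, EV 1 or EV 2 and 7 without KD 2. EV and NT are also the controls of the other comparisons.

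GC content moved with the OE values. Over the 52 genes, Spearman's rho between the GC content of the canonical transcript and the log2 fold change in OE versus EV was 0.418, and over 14018 tested genes with a GC value it was 0.452. The genes share their libraries and are not independent. The same pair of values was 0.241 and 0.22 in KD versus NT and 0.583 and 0.371 in EV versus NT. The 26 genes of lower GC content (38.0% to 46.7%) had a median of -0.28 in OE versus EV, with 1 that rose and 15 that fell, beside a median of -0.23 over the 5931 tested genes on that side of the same GC split. The 26 of higher GC content (47.3% to 64.8%) had a median of -0.10, with 8 that rose and 8 that fell, beside 0.145 over 8087 tested genes. An offset for GC content, added after the data were seen, left 10 that rose and 22 that fell at 0.05, where 27.3% of the genes fitted rose and 24% fell, and a median of -0.14. Of the 32 genes past 0.05 without the offset, 23 kept their call, MCM5, POLD3, PCNA, RFC5, HELLS, TIMELESS and DTL lost it, and POLD1 and RFC3 lost it with the sign turned. A further 9 passed only with the offset, GINS1, PRIM1, RPA2 and RRM2 upward and MCM2, POLA2, FEN1, LIG1 and UNG downward. The 4 genes called higher and the 8 called lower kept their direction and passed 0.05, with other sizes. CDT1 went from 0.71 to 0.45, TK1 from 0.67 to 0.46, POLD2 from 0.42 to 0.21 and PRIM2 from 0.56 to 0.78. POLE2 (-0.66), ORC6 (-0.57), ATAD2 (-0.26), POLA1 (-0.23) and MCM6 (-0.20) were no longer called at 0.0001. In KD versus NT the offset left all 52 past 0.05 with a median of 1.17. The part of GC content in the OE values was not tested beyond this offset.

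**Figure D4:**
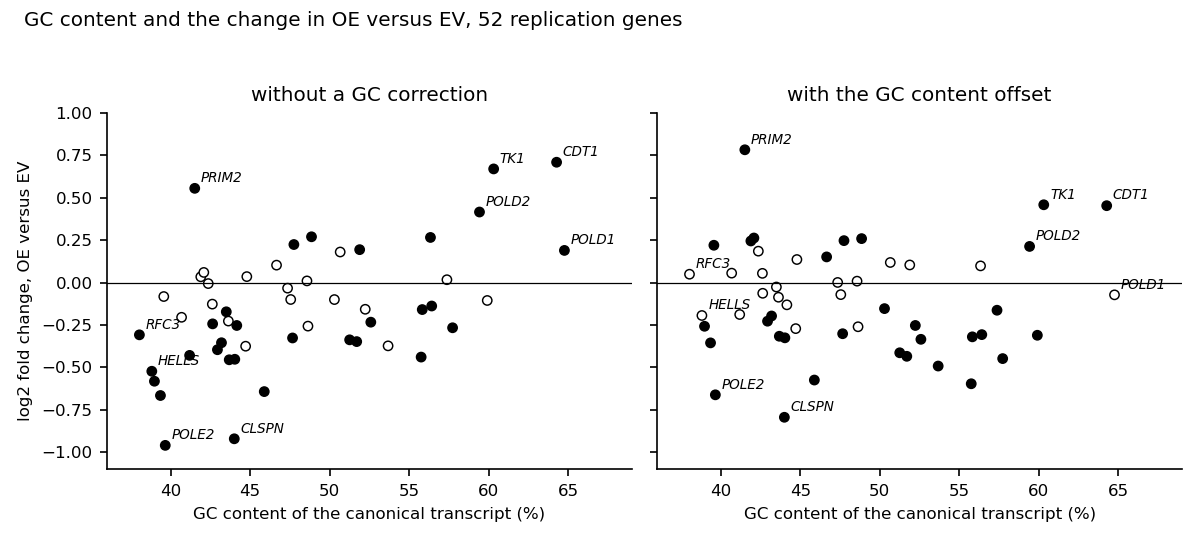
Log2 fold change in OE versus EV of the 52 replication genes against the GC content of their canonical transcripts (%), without a correction (left) and with the offset for GC content (right). Filled points passed an adjusted p under 0.05 (edgeR), PRIM2 lies at high values despite its low GC content, and RFC3 and POLD1 change sign between the panels.

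The genomic surroundings were compared next. The median log2 fold change of the 20 nearest tested genes ran from -0.36 (around POLA1) to 0.36 (around FEN1) in KD versus NT. All 52 genes lay above the median of their neighbours there, by at least 0.17. In OE versus EV the neighbours' medians ran from -0.33 (around RFC3) to 0.47 (around CHAF1A), which is the size of many of the values of the genes themselves. MCM3 (chr6:52264014-52284881) was at -0.35 in OE and its neighbours had a median of -0.29.

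Genes of the same pathway outside the 52 moved less evenly. Both lists were chosen with earlier results of these data known, and the part of that choice in this contrast was not tested. Of 41 other replication genes, all tested, 22 were called higher and 2 lower in KD versus NT (median 0.49), where 16.4% and 12.8% of all tested genes were. In OE versus EV 5 were called higher and 8 lower (median -0.08), beside backgrounds of 11.6% and 10.3%. TICRR, which helps CDC45 onto the helicase, was at 8.338 and 10.88 CPM in NT, 44.93, 38.62 and 41.3 in KD, 11.93 and 12.49 in EV, and 15.55, 15.16 and 16.06 in OE. It rose in both, by 2.12 ± 0.10 in KD (edgeR adjusted p = 4.07e-15) and 0.35 ± 0.10 in OE (edgeR adjusted p = 0.00452). ASF1B, a histone chaperone, rose by 1.92 and 0.35. The maintenance methyltransferase DNMT1 rose in KD by 1.20 and was at 0.09 in OE. The falls in OE with the smallest p were in ATR, the checkpoint kinase (-0.77, edgeR adjusted p = 1.06e-08) and its activator TOPBP1 (-0.75, edgeR adjusted p = 2.53e-09), with -0.28 and 0.26 in KD. MCMBP, a binding partner of the MCM ring, rose in KD by 0.62 and fell in OE, at -0.47. The 2 called lower in KD, named after their values were seen, were the origin recognition subunits ORC3 (-0.67) and ORC4 (-0.69), unlike ORC1 and ORC6 above.

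The G1/S switch genes, which act before replication, held the E2F factors. Of 14, 10 were called higher (background 16.4%) and 0 lower (background 12.8%) in KD by edgeR, with a median of 0.57. At 0.05, 2 were lower in KD, where 4886 of all 17230 tested genes were. In OE 2 of the 14 were called higher (background 11.6%) and 2 lower (background 10.3%), with a median of -0.10. E2F1, an activator, was at 19.13 and 20.33 CPM in NT, 76.31, 71.17 and 67.6 in KD, 30.46 and 31.72 in EV, and 34.58, 35.26 and 36.14 in OE. It rose by 1.86 ± 0.07 in KD (edgeR adjusted p = 1e-16) and by 0.18 ± 0.07 in OE (edgeR adjusted p = 0.0226). E2F2 rose in KD by 2.13 and was at -0.01 in OE, and CDK2 rose by 1.11 and fell in OE, at -0.20. Cyclin E2 (CCNE2) rose in KD by 0.59 and fell in OE, at -0.88, and E2F3 did likewise (0.55 and -0.40). The inhibitor CDKN1A went the other way, falling in KD at -0.18 (edgeR adjusted p = 0.0222) and rising in OE by 0.46 (edgeR adjusted p = 2.2e-06). So did CDKN1B, at -0.21 in KD (edgeR adjusted p = 0.00121) and 0.27 in OE (edgeR adjusted p = 8.85e-05).

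Mitosis genes were mostly higher in both lines than in their controls. Of 24 mitosis genes, 22 were called higher in KD (background 16.4%), with a median of 1.77. In OE 15 were called higher (background 11.6%) and 0 lower by edgeR (background 10.3%), with a median of 0.81. At 0.05, 18 rose in OE (background 25.6%) and 0 fell (background 26.4%). PLK1, the kinase that drives mitotic entry, was at 27.92 and 33.24 CPM in NT, 194.2, 172.1 and 174.5 in KD, 34.98 and 32.13 in EV, and 134.9, 140.3 and 121 in OE. It rose by 2.56 ± 0.08 in KD (edgeR adjusted p = 4.54e-18) and 1.98 ± 0.08 in OE (edgeR adjusted p = 8.79e-16). CCNB1, CDC20 and BIRC5 rose in OE by 1.44, 1.73 and 1.08. Relative to NT, the median of the mitosis genes was 0.71, 0.67 and 0.74 in OE and -0.14 and -0.03 in EV. For the 52 replication genes it was 0.19 and 0.20 in EV and 0.02, -0.09 and 0.05 in OE. In the KD samples both were higher than in every other sample, at 1.90, 1.63 and 1.81 for mitosis and 1.23, 1.09 and 1.15 for replication. KD 2 was lowest of the KD samples in both lists, and in 31 of the 52 replication genes.

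**Figure D5:**
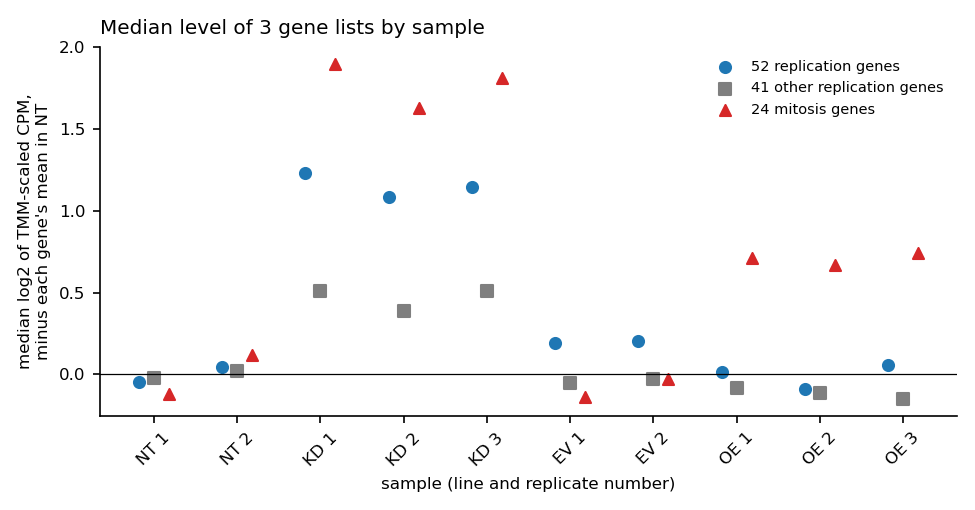
Median over the genes of 3 lists (symbols) of log2 TMM-scaled CPM minus each gene's mean in NT, for each of the 10 samples. The 3 KD samples are highest for all 3 lists, and the OE samples are above EV for the mitosis genes (0.67 to 0.74) but not for the 52 replication genes (-0.09 to 0.05).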

How the data were processed

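RNA of 10 samples was sequenced as poly(A)-selected read pairs. Before deposit the authors trimmed reads, mapped them to hg38 with STAR 2.6.0a and made whole-number counts per gene, with no normalization, and 0 sample columns were left out. The strand setting is not given in the sources used here.

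Counts were filtered with filterByExpr, scaled with TMM and fitted with edgeR 4.0.16 (R 4.3.3) with 1 mean per line over all 10 samples, and the quasi-likelihood test was adjusted with Benjamini-Hochberg over 17230 genes. The SE printed with a log2 fold change is its absolute value divided by the square root of the F value of this test. It is thus derived from the test and is not the spread between the samples of a line. The study used limma, which was run as an alternative (limma-voom, limma 3.58.1), as was DESeq2 1.42.0. Other alternatives were size factors, library size only, other filters, a replicate block, each arm alone and leaving out each sample. The GC offset was chosen later, with the data in view. Checks on simulated data with known changes preceded the fits.

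The 52 genes and all lists were chosen with earlier results of these data known. Genes were named for the smallest p of each role in KD versus NT and in OE versus EV, the 3 highest and lowest changes, not being called in KD at 0.05, and the 3 smallest p of each other list in either comparison. Values in every sample are given for the named replication genes among the 52, except KD 3 for TIMELESS, and for 1 gene of each other list, picked after its values were seen. Any other gene was chosen in the same way. Positions and GC content came from GENCODE v44, and 44 promoters matched RefSeq.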

Additional observations from a re-analysis of the deposited data

How the results depend on the processing

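KD versus NT kept its direction for all 52 genes. Leaving out 1 sample gave 42 to 52 genes called higher there, 0 called lower, and a median of 1.11 to 1.23. For the interaction the range was 41 to 48 called lower, 0 higher and a median of -1.37 to -1.22, for OE against KD 48 lower, 0 higher and -1.16 to -1.07, for OE versus EV 3 to 4 higher, 1 to 13 lower and -0.20 to -0.15, and for EV versus NT 1 to 7 higher, 0 to 1 lower and 0.11 to 0.28. Without the filter 14 genes were called lower in OE versus EV and 7 higher in EV versus NT. Of the other tests, limma-voom called 5 lower in OE versus EV, and the DESeq2 Wald test 5 higher in EV versus NT. The share of all tested genes called at the limit of the study is given for the main fit only. Counts of calls from any other fit, here and above, thus have no background beside them. They show how the calls among the 52 genes varied, not whether these genes stood out from all tested genes. An adjusted p under 0.05 gave 9 higher and 23 lower in OE versus EV, 22 higher and 2 lower in EV versus NT, and 1 higher in OE against KD. Library size alone gave medians of -0.26 in OE versus EV, -1.40 in the interaction and -1.25 in OE against KD, and 1 gene called higher in EV versus NT. In OE versus EV the sign turned for GINS1 (-0.0639) and RRM2 (-0.0378) with library size alone, for POLD1 (-0.0724) and RFC3 (0.0492) with the GC offset, and for RRM2 on leaving out samples (-0.00195 to 0.141, the lowest without EV 2). The cause was not tested.

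Same-numbered samples did not deviate together on average (mean correlation -0.00282 over 13 pairs, against 0.00156 over 24 pairs with different numbers). In a line of 2 samples the 2 deviations mirror each other, so this check could miss a pairing. No pairing was used in the main fit, and a batch shared by samples of the same number was not tested. With the replicate block, OE versus EV had 5 higher calls and 7 lower ones, and KD versus NT had 49 higher. With 2 samples in each control line, genes with few counts, such as POLE2, E2F8 and POLA2, had the widest errors in OE versus EV.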
